A study of Sus scrofa with 220 samples.

Results

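The genes described here are the cell cycle members of the pig embryo transcriptome: every entry whose pig gene symbol begins with CCNA, CCNB, CCND, CCNE, CDK, CDC, MCM, CENP, AURK or BUB and whose level exceeded 1 TPM in at least 3 of 220 single cells. TPM, the level used throughout, is a read count divided by gene length and scaled to a fixed total in each cell, so that a level is a share of the RNA counted in that cell. Of 90 entries with such a symbol, 87 met the rule, out of 14721 entries of any name that did so. The members left out were CDC20 with 1 cell, CDK5R1 with 1 cell and CDCP2 with 0 cells above the threshold, and those just inside it were CDKN2A with 5 cells, CDK15 with 6 and CCNB1IP1 with 7. By stem, the members comprised 1 CCNA, 4 CCNB, 0 CCND, 2 CCNE, 27 CDK, 29 CDC, 7 MCM, 13 CENP, 1 AURK and 3 BUB genes. The rule goes by name, so it also took in genes that act outside the cell cycle, such as CDC42, a small GTPase of cell polarity, and several of its effectors. CCNA2, the D-type cyclins, CDK2, CDK4, CDK6, MCM5, MCM6, MCM7, AURKA and CDKN1A are not analysed here, since no entry carried their symbol.

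The cells came from untreated in vivo embryos of artificially inseminated pigs and were sequenced one by one with Smart-seq2, a protocol that covers full-length polyadenylated RNA. The labels put 47 cells of 8 embryos in morula (M). At the early blastocyst, they put 24 cells of 7 embryos in the inner cell mass (EB ICM) and 28 cells of 10 embryos in the trophectoderm (EB TE). The later labels held 25 cells of 4 embryos in late blastocyst epiblast (LB EPI), 36 cells of 5 embryos in late blastocyst hypoblast (LB HYPO), 48 cells of 4 embryos in spherical embryo epiblast (Sph EPI) and 12 cells of 3 embryos in spherical embryo hypoblast (Sph HYPO). The embryos came from crossbred Large White and Landrace sows, without genetic modification or treatment. They were of both sexes, in unequal shares per label according to the study. It gives all 12 Sph HYPO cells as male and most LB HYPO cells as female. In LB HYPO against Sph HYPO, stage and sex can therefore not be fully told apart. The labels give no sex, which entered no fit, and its part in the results was not tested. Late blastocysts had lost their trophectoderm to immunosurgery, which lyses the outer cells with antibody and complement. The epiblast and hypoblast of spherical embryos were separated by hand, and trophectoderm was not sampled at either of these stages. The comparisons below ask how the levels of the cell cycle genes differed between successive stages and between the lineages of one stage.

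Progress through the cell cycle is driven by cyclin-dependent kinases, which are active when bound to a cyclin. E-type cyclins act at entry into S phase. Before that, CDC6 helps to load the MCM helicase onto replication origins, and CDC45 joins the helicase when origins fire. Cyclin B with CDK1 drives mitosis, with CDC25 phosphatases removing the inhibitory phosphates from the kinase. CENP proteins build the centromere and kinetochore, Aurora kinase B corrects faulty attachments of chromosomes to the spindle, and the BUB proteins hold back the anaphase promoting complex until all chromosomes are attached. Cells of the early mammalian embryo divide first without growth and under maternal RNA, and then with their own transcripts.

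Counts per cell ranged from 1012604 to 5696373 with a median of 2006854, and 24.7% of all counts lay on entries without a symbol. The members took 0.387% to 1.60% of a cell's counts, and a cell had 20 to 67 of the members above 1 TPM with a median of 50. All values per embryo below are means over the cells of an embryo within a label. Tests used the counts of these cells summed, which gave 41 sums from 1 to 19 cells each. EB ICM embryos AD and AI, EB TE embryos AF, AG and E6-ER and LB HYPO embryo AL had 1 cell each, so their values are those of single cells. In sums of picked cells, fewer cells expressing a gene and less RNA per cell cannot be told apart. Epiblast markers (6 genes) summed to 308 to 1213 TPM in LB EPI against 27 to 117 in LB HYPO. Hypoblast markers (5 genes) summed to 122 to 693 TPM in LB HYPO against 2.63 to 29.7 in LB EPI. In spherical embryos, epiblast markers summed to 650 to 779 TPM in EPI and 19.6 to 174 in HYPO, with SFRP2 at 0 in every HYPO embryo. Hypoblast markers summed to 81.5 to 236 TPM in HYPO and 0 to 6.09 in EPI, with GATA4 at 0 in every EPI embryo. Trophectoderm markers (6 genes) summed to 18159 to 58307 TPM in 9 EB TE embryos and to 175 TPM in the single EB TE cell of embryo E6-ER, in which 4 of the 6 were at 0. That cell goes against its label. Without the 2 cells of less certain embryo, this one and a cell of LB EPI, M against EB TE called 219 genes in place of 119 and again 1 member, and the members' median log2 fold change was 0.50. Where this cell sets the end of a range given below, the range without it is given too. Trophectoderm markers, keratins among them, also reached 17308 to 43067 TPM in Sph HYPO.

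The cell cycle genes were broadly present, and a few of them carried most of the RNA. Of the 87 members, 52 exceeded 1 TPM in at least 50% of cells, 13 of them in at least 90%, and 9 did so in less than 10%. CCNB1 (cyclin B1), CDK1 and BUB3, a kinetochore-binding protein of the spindle checkpoint, held 42.8% of the summed mean TPM of all members, and the 10 highest members held 62.5%. The summed TPM of all members was 6719 to 10647 in 8 M embryos (median 7748). It was 4859 to 7035 in 7 EB ICM embryos (median 6254) and 4265 to 6296 in 10 EB TE embryos (median 5436). Without the E6-ER cell the EB TE median was 5404. All M embryos lay above all EB TE embryos, and the M and EB ICM ranges overlapped. In LB EPI the sum ran from 7378 to 10047 TPM and in LB HYPO from 5349 to 7438, in Sph EPI from 6481 to 8428 and in Sph HYPO from 3387 to 7868. These sums are descriptions, and no test was run on them.

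Among genes with a count in the sums of all 7 labels, 3 of 75 members differed among labels in edgeR's quasi-likelihood test with Benjamini-Hochberg adjustment, against 11.9% of the 8994 genes tested. They were CDC42EP1 (adjusted p = 0.000362), CDK1 (adjusted p = 0.00173) and BUB3 (adjusted p = 0.0414). CDCA7 (adjusted p = 0.0543), CCNB1 (adjusted p = 0.105) and MCM2 (adjusted p = 0.128) did not pass. Over all 14721 genes, 14 of 87 members passed against 37.7% of genes. On simulated counts this test made many false calls among genes with no count in a label. Of the 14 members, 9 had no count in at least 1 label, among them CDC14A, CCNA1, CDK15, CDKL2 and CDKN2C. A gene absent from 1 label cannot enter the test on genes counted in all labels, so that test says nothing of these 9. CDC14A passed in all 28 alternatives run, 16 of them refits without 1 embryo. DESeq2 (adjusted p = 0.0027) and limma (adjusted p = 0.000268) were among the 28, and the alternatives other than these tools used the same edgeR test. CCNA1, CDK15 and CDKN2C passed neither in DESeq2 (adjusted p = 0.639, 0.918 and 0.628) nor in limma (adjusted p = 0.717, 0.343 and 0.572). CDKL2 passed in limma (adjusted p = 0.000728) and not in DESeq2 (adjusted p = 0.398). At the level of single cells, labels held 8.71% of the sum of squares of log2(TPM + 1) in the median member. Embryos within labels held 18.2% and cells within embryos 72.3%. In the median of all entries the shares were 8.75%, 16.2% and 72.6%. These shares are not corrected for the numbers of labels and embryos. With few cells per embryo, spread among cells alone gives embryos a share, so labels and embryos cannot be ranked by them. The share between labels was largest for CDCA7 (69.3%), CDC42EP1 (66.1%) and CDCA7L (46.8%), genes picked out here after their values were seen.

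Comparisons of label pairs called few members. Calls and adjusted p-values without a named tool are edgeR's, and limma here used a pseudocount of 1. Between M and EB ICM, 0 of 87 members passed against 2.45% of genes, with 17 at an unadjusted p under 0.05 against 23.4% of genes. DESeq2 called 6 against 8.26% of genes, and limma 2 against 4.52%. Between M and EB TE, 1 member passed, CDK1, against 0.808% of genes, with 12 at an unadjusted p under 0.05 against 20.9%. DESeq2 called 2 against 4.08%, and limma 4 against 2.55%. Between EB ICM and EB TE, 0 passed in edgeR against 0.754%, with 5 at an unadjusted p under 0.05 against 18.9%. DESeq2 called 1 against 3.1%, and limma 1 against 1.54%. Between EB ICM and LB EPI, 1 member passed against 2.91% of genes, with 10 at an unadjusted p under 0.05 against 22.6%. DESeq2 called 4 against 9.42%, and limma 3 against 6.58%. Between EB ICM and LB HYPO, 0 passed in edgeR against 2.1%, with 10 at an unadjusted p under 0.05 against 22.5%. DESeq2 called 4 against 7.54%, and limma 3 against 4.14%. Between LB EPI and LB HYPO, 0 passed in edgeR against 1.92%, with 10 at an unadjusted p under 0.05 against 20%. DESeq2 called 4 against 9.42%, and limma 2 against 4.73%.

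From LB to Sph in EPI, 0 passed in edgeR against 0.156% of genes, with 15 at an unadjusted p under 0.05 against 13.6%. DESeq2 called 8, or 9.2% of members, against 5.62%, and limma 2 against 0.659%. In the other pairs DESeq2 called a smaller share of members than of all genes. From LB to Sph in HYPO, 0 passed in edgeR against 0.163%, with 3 at an unadjusted p under 0.05 against 9.52%. DESeq2 called 1 against 2.32%, and limma 0 against 0.163%. Between Sph EPI and Sph HYPO, 1 member passed against 1.13% of genes, with 5 at an unadjusted p under 0.05 against 15.2%. DESeq2 called 5 against 9.86%, and limma 1 against 2.49%. This count was 0 with embryo as a replicate block, with filterByExpr, in the last 4 sequencing pools and in the model of all 7 labels. Leaving out 1 embryo gave 0 in 5 of 7 fits, and 6 without Sph HYPO embryo F, where 583 genes were called in place of 167. For the difference of the epiblast to hypoblast contrast between LB and Sph, 0 members passed in edgeR against 0.0408% of genes, with 5 at an unadjusted p under 0.05 against 10.8%. DESeq2 called 2 against 3.27%, and limma 0 against 1.16%.

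**Figure D1:**
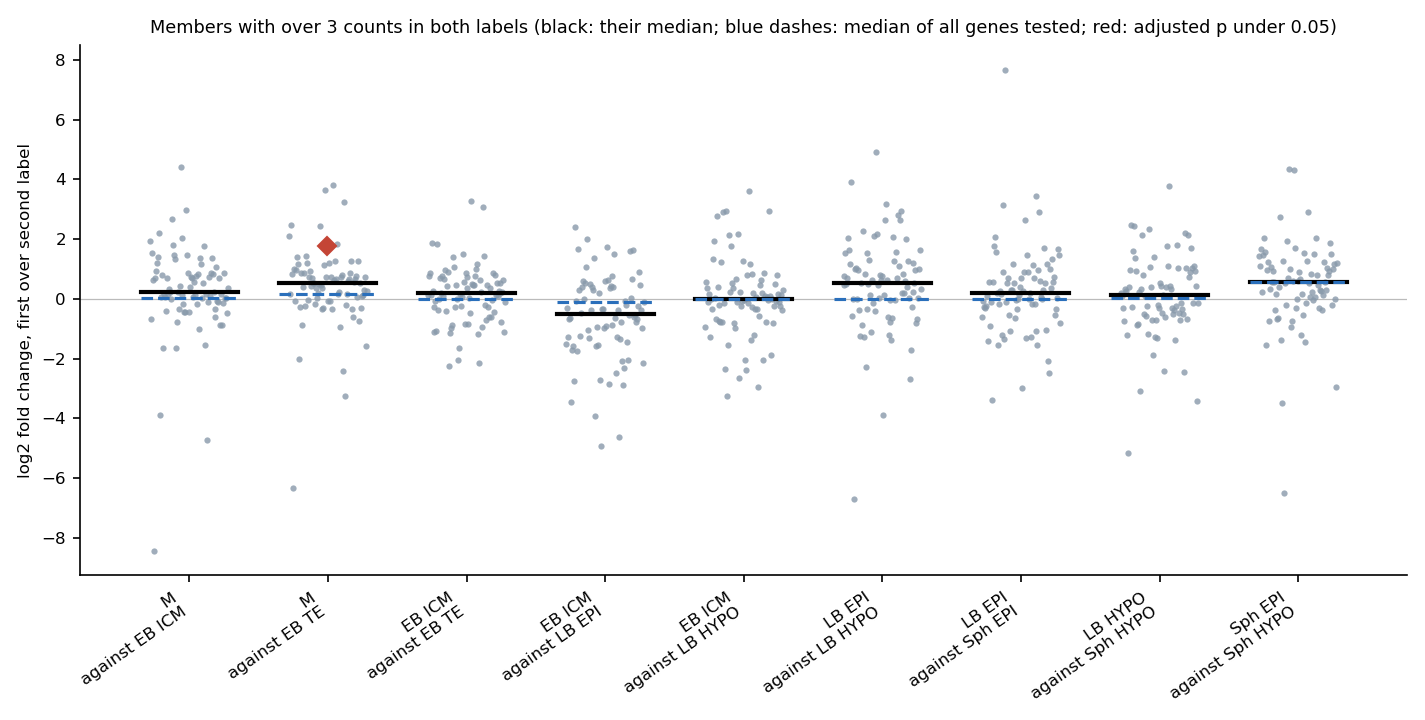
Log2 fold changes of members in 9 label comparisons, each point being 1 member with over 3 counts in both labels; black lines are medians of the plotted members, blue dashes medians of all genes tested, and red marks an adjusted p under 0.05. CDK1 is the single red point, in M against EB TE.

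The members' median log2 fold change lay above that of all genes in M against EB TE, at 0.53 beside 0.16 for all genes, with 62 members positive and 24 negative. In M against EB ICM it was 0.24 beside 0.02, with 58 positive and 28 negative. In EB ICM against LB EPI it was -0.46 beside -0.11, with 30 positive and 56 negative, and in LB EPI against LB HYPO 0.51 beside 0.00, with 58 positive and 29 negative. In Sph EPI against Sph HYPO the median was 0.58 with 62 positive and 23 negative, next to 0.57 for all genes. Without the TMM scaling, the all-gene median was 0.13 in LB EPI against LB HYPO and -0.01 in EB ICM against LB EPI, shifts of over 0.1, while the members' medians were 0.65 and -0.35. The remaining medians, for members and all genes, were 0.18 and 0.00 in EB ICM against EB TE, -0.04 and 0.00 in EB ICM against LB HYPO, 0.16 and 0.00 in LB EPI against Sph EPI, and 0.24 and 0.03 in LB HYPO against Sph HYPO. With genes that had no count in 1 of the labels set to a bound from 3 counts, the all-gene medians moved to 0.13 in M against EB ICM, 0.27 in M against EB TE, 0.10 in EB ICM against EB TE, -0.24 in EB ICM against LB EPI and 0.15 in LB EPI against LB HYPO. In LB HYPO against Sph HYPO this all-gene median was 0.22, near the members' 0.24. The members' medians with such genes at their bound lay within 0.05 of those above. The plot of fold changes draws medians over the members with over 3 counts in both labels alone, such as -0.51 in EB ICM against LB EPI and 0.12 in LB HYPO against Sph HYPO.

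CDK1, the kinase that drives entry into mitosis, was the member that passed the test between M and EB TE, with a higher level in M. Its level in M was 733 to 2330.0 TPM (8 embryos, median 1362), and in EB TE 183 to 1208 TPM (10 embryos, median 455). The highest EB TE value belonged to the cell of embryo E6-ER; the next, 673 TPM, lay below the lowest M embryo. The difference passed (log2 fold change 1.76, SE 0.30, adjusted p = 0.00412; edgeR, n = 8 and 10). Without the 2 cells of less certain embryo, of which the E6-ER cell is one, the log2 fold change was 1.92 with an adjusted p of 0.000645. When the cells of the first 4 or the last 4 sequencing pools were taken alone, the call was lost, with log2 fold changes of 1.69 and 1.68 and an adjusted p of up to 0.0934. EB ICM had 603 to 999 TPM (7 embryos, median 764), between the other labels and overlapping both. Neither M against EB ICM (log2 fold change 0.85, SE 0.24, adjusted p = 0.0666) nor EB ICM against EB TE (log2 fold change 0.86, SE 0.31, adjusted p = 0.118) passed in edgeR. M against EB ICM passed in DESeq2 (adjusted p = 0.0208), in limma (adjusted p = 0.0484) and in edgeR after filterByExpr (adjusted p = 0.0486). In the later labels CDK1 stood at 1551, 1189, 977 and 636 TPM (embryos AN, AO, AP and AQ) for LB EPI. It was at 484 to 1299.7 TPM for LB HYPO, 438 to 1475 for Sph EPI and 452 to 1334 for Sph HYPO, ranges that all overlap.

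CCNB1, the B-type cyclin that partners CDK1, had the highest mean level of all members. It was at 1067 to 2603 TPM (8 embryos, median 1742) in M and 391 to 2099.6 TPM (10 embryos, median 815) in EB TE. These ranges overlap, and the difference did not pass (log2 fold change 0.99, SE 0.28, adjusted p = 0.0762). In LB EPI its level was 1744, 2075, 1367 and 1778 TPM (embryos AN, AO, AP and AQ). LB HYPO had 442, 1269, 581, 869 and 1831 TPM (embryos AL, AM, AN, AO and AP). The highest LB HYPO embryo, AP, lay above 3 of the 4 LB EPI embryos (log2 fold change 0.70, SE 0.36, adjusted p = 0.287). Sph EPI had 1317, 1584, 2189 and 2179.7 TPM (embryos C, D, E and F) and Sph HYPO 84.9, 363 and 1531 TPM (embryos C, E and F). The Sph HYPO embryos C and E, with 2 cells each, were far below embryo F, with 8 cells, and the comparison did not pass (log2 fold change 1.47, SE 0.73, adjusted p = 0.366). Without embryo F of Sph HYPO, CCNB1 passed (log2 fold change 3.19, adjusted p = 0.0229), together with CCNB2, CDC6, CDCA5 and CDCA7, and 583 genes were called in place of 167.

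**Figure D2:**
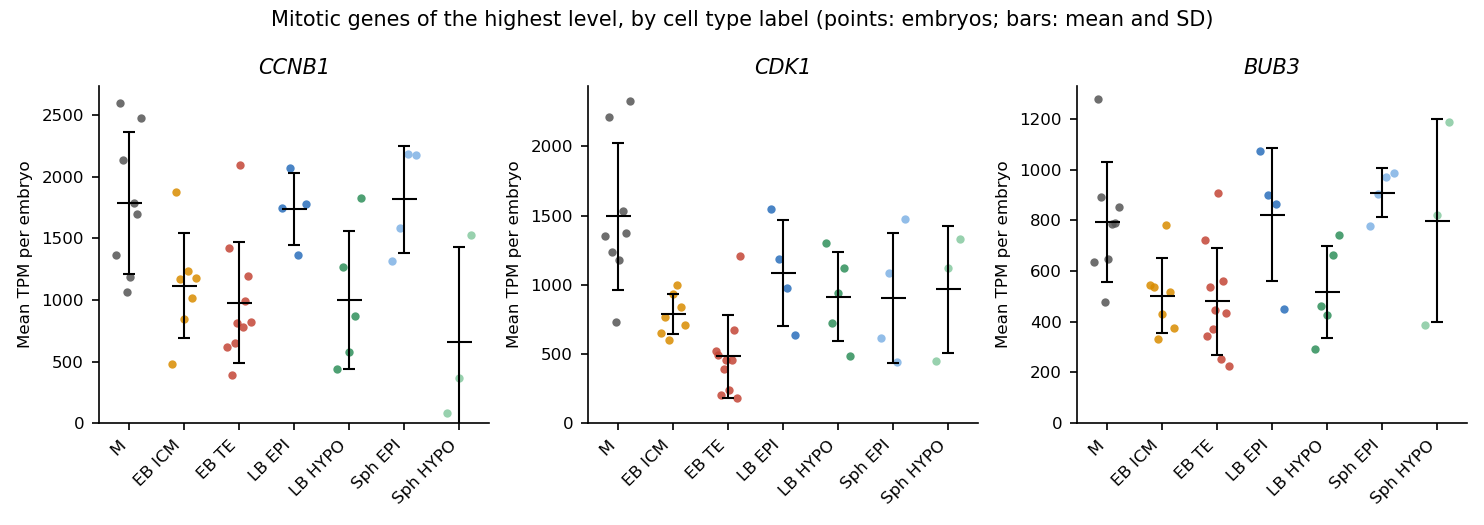
Mean TPM per embryo of the 3 members of highest level in each cell type label; points are embryos and bars give the mean and SD, cut at 0. CDK1 in EB TE sits at 183 to 673 TPM in 9 embryos, below all 8 M embryos, with E6-ER at 1208.

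The other mitotic cyclins were lower and sparser. CCNB2 ranged over 19.2 to 153 TPM in M, 0 to 114 in EB ICM, 0 to 138 in EB TE. In the later labels it ranged over 30.1 to 361 TPM in LB EPI, 17.9 to 80.9 in LB HYPO, 49.97 to 172 in Sph EPI and 0 to 98.3 in Sph HYPO. CCNB3, a B-type cyclin known from meiosis, was above 1 TPM in 34 of 48 cells (70.8%, interval 55.9 to 83%) of Sph EPI. In EB ICM it was so in 3 of 24 cells (12.5%, interval 2.66 to 32.4%). The intervals are exact Clopper-Pearson at 95% and cover counting error only. CCNA1, the germline A-type cyclin, was above 1 TPM in 12 of 220 cells, 9 of them in Sph EPI, where its level was 28, 8.26, 0 and 14.2 TPM (embryos C, D, E and F). In the earlier labels it came from 1 cell each in M, EB ICM and EB TE, at 241 TPM in EB ICM embryo AE and 117 TPM in EB TE of the same embryo. LB EPI, LB HYPO and Sph HYPO had 0 counts of CCNA1. None of the 4 mitotic cyclins passed in a label pair in edgeR, where 0.156% to 2.91% of genes did. In each pair at most 2 of the 4 were at an unadjusted p under 0.05. These were M against EB ICM and M against EB TE, with 23.4% and 20.9% of genes. DESeq2 called CCNA1 in LB EPI against Sph EPI (adjusted p = 0.00359) and in Sph EPI against Sph HYPO (adjusted p = 0.00987).

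The E-type cyclins, which act at the start of S phase, varied widely between embryos of one label. CCNE1 in LB EPI was 0, 6.6, 181 and 75.8 TPM (embryos AN, AO, AP and AQ). In LB HYPO it was 0, 16, 0.943, 9.85 and 2.83 TPM (embryos AL, AM, AN, AO and AP). Sph HYPO had 191, 293 and 14.5 TPM (embryos C, E and F). Embryos C and E lay above every LB HYPO embryo and F within their range, and the difference did not pass (log2 fold change -5.15, SE 1.42, adjusted p = 0.28). CCNE2 was at 0 to 6.3 TPM (8 embryos, median 0.0667) in M and 0 to 48.9 TPM (7 embryos, median 30.4) in EB ICM. The CCNE2 ranges overlapped through 1 EB ICM embryo at 0, and the difference did not pass (log2 fold change -3.88, SE 1.46, adjusted p = 0.121). Above 1 TPM, CCNE2 was found in 4 of 47 cells (8.51%, interval 2.37 to 20.4%) of M and 14 of 24 cells (58.3%, interval 36.6 to 77.9%) of EB ICM. Neither E-type cyclin passed in a label pair in edgeR, where 0.156% to 2.91% of genes did. DESeq2 called CCNE2 in M against EB ICM (adjusted p = 0.0329) and CCNE1 in LB HYPO against Sph HYPO (adjusted p = 0.00621).

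Of the genes of replication licensing, MCM2, MCM3 and MCM4 were found in nearly every cell. MCM3, a subunit of the MCM helicase, was above 1 TPM in 220 of 220 cells, MCM4 in 216 and MCM2 in 212. The others were sparser, from CDC6 in 174 cells to MCM9 in 31. MCM2 was at 235, 162, 201 and 276 TPM (embryos AN, AO, AP and AQ) in LB EPI. In LB HYPO it was at 110.2, 101, 103, 97.4 and 105 TPM (embryos AL, AM, AN, AO and AP). The 5 LB HYPO embryos lay close together and all below the 4 LB EPI embryos, yet the difference did not pass after adjustment over all genes (log2 fold change 0.96, SE 0.31, adjusted p = 0.164). MCM3 was at 81.3, 111, 160.4 and 132 TPM (embryos AN, AO, AP and AQ) in LB EPI. In LB HYPO it was at 279, 172, 197, 141 and 229.6 TPM (embryos AL, AM, AN, AO and AP), with 4 of 5 embryos above every LB EPI embryo. Its ranges overlapped (log2 fold change -0.81, SE 0.32, adjusted p = 0.235), and in the last 4 sequencing pools alone the log2 fold change was 0.24. MCM4 was at 194 to 247 TPM in LB EPI and 143 to 292 in LB HYPO.

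In Sph EPI, MCM4 was at 168, 225, 227 and 146 TPM (embryos C, D, E and F). Sph HYPO was at 119.8, 45.2 and 102 TPM (embryos C, E and F), without overlap, and the difference did not pass (log2 fold change 1.17, SE 0.46, adjusted p = 0.279). MCM2 in Sph EPI was 130.0, 173, 93.2 and 105 TPM (embryos C, D, E and F). In Sph HYPO it was 86.4, 3.41 and 45.1 TPM (embryos C, E and F). All 3 Sph HYPO embryos were below the Sph EPI range for MCM2. From M to EB ICM, MCM2 was 47.5, 85.8 and 262 TPM (lowest, median, highest) in M and 86.6, 167 and 426 in EB ICM (log2 fold change -0.87, SE 0.34, adjusted p = 0.137). CDC6 was at 48.8, 108 and 203 TPM in M, 37.1, 136 and 385 in EB ICM and 17.9, 77 and 513 in EB TE, where the highest value was again the E6-ER cell and the next was 196 TPM. CDC6 in Sph HYPO was 0, 0 and 50.8 TPM (embryos C, E and F), against 47.9 to 112 in Sph EPI. CDC45 ranged over 38 to 65.9 TPM in EB ICM, 0 to 61.4 in EB TE, 39.1 to 133 in LB EPI and 46.8 to 95.3 in Sph EPI. None of the 9 replication genes passed in a label pair in edgeR, where 0.156% to 2.91% of genes did. At most 2 of the 9 in a pair were at an unadjusted p under 0.05. These pairs were LB EPI against LB HYPO and LB EPI against Sph EPI, with 20% and 13.6% of genes. MCM2 in LB EPI against LB HYPO passed in DESeq2 (adjusted p = 0.00393) and in edgeR after filterByExpr (adjusted p = 0.0429).

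**Figure D3:**
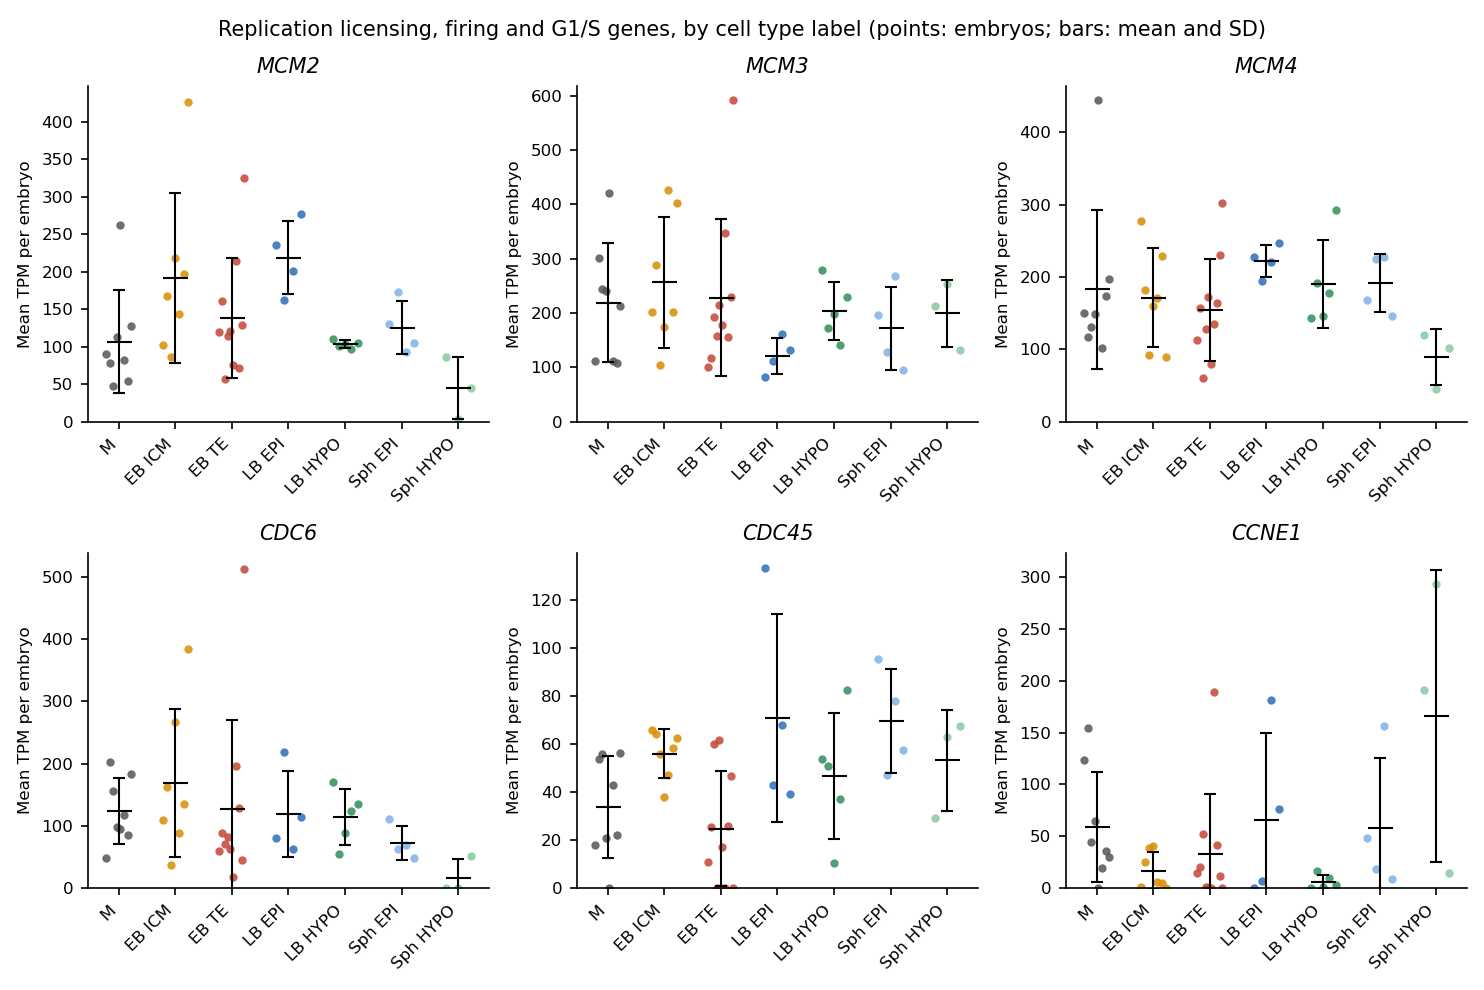
Mean TPM per embryo of MCM2, MCM3, MCM4, CDC6, CDC45 and CCNE1 in each cell type label; points are embryos and bars give the mean and SD, cut at 0. MCM2 in LB HYPO lies at 97.4 to 110.2 TPM, below the 162 to 276 TPM of LB EPI.

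Of the genes that act at the kinetochore, BUB3 had the highest level. In M it was at 477 to 1278 TPM (8 embryos, median 787). EB ICM was at 333 to 781 TPM (7 embryos, median 517.3) and EB TE at 224 to 908 TPM (10 embryos, median 440.0), or 253 to 908 TPM without the E6-ER cell. The M range overlapped both others, and neither M against EB TE (log2 fold change 0.83, SE 0.28, adjusted p = 0.0896) nor M against EB ICM (log2 fold change 0.64, SE 0.24, adjusted p = 0.127) passed. LB EPI was at 1072, 901, 865 and 452 TPM (embryos AN, AO, AP and AQ) and LB HYPO at 292 to 741 TPM, with LB EPI embryo AQ inside the LB HYPO range. Sph EPI was the most even label, at 776, 906, 969 and 987 TPM (embryos C, D, E and F).

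AURKB, the Aurora kinase of the chromosomal passenger complex, was at 51.5 to 314 TPM (8 embryos, median 141) in M and 0 to 104 TPM (7 embryos, median 17.3) in EB ICM. The ranges overlap, and the difference did not pass in edgeR (log2 fold change 1.93, SE 0.75, adjusted p = 0.132) but did in limma (adjusted p = 0.0213). In EB TE it was at 0 in 6 of 10 embryos, the E6-ER cell among them, and reached 158 TPM at the highest. In cells, AURKB exceeded 1 TPM in 42 of 47 cells (89.4%, interval 76.9 to 96.5%) of M and 10 of 28 cells (35.7%, interval 18.6 to 55.9%) of EB TE. The median cell had 40 members above 1 TPM in EB TE and 54 in M, and the part of this in the AURKB shares was not tested. BUB1, a checkpoint kinase, ranged over 2.91 to 72 TPM in M and 0 to 64 in EB TE, and its relative BUB1B over 7.14 to 53.1 and 0 to 23.7. Limma called AURKB (adjusted p = 0.00215) and BUB1B (adjusted p = 0.00996) in M against EB TE. In Sph HYPO, BUB1B was at 0 in embryos C and E and at 28.1 TPM in F.

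None of the 13 centromere proteins passed in a label pair in edgeR, where 0.156% to 2.91% of genes did. At most 3 of the 13 in a pair were at an unadjusted p under 0.05, against 13.6% of genes, in LB EPI against Sph EPI. There DESeq2 called CENPH (adjusted p = 7.34e-09), CENPT (adjusted p = 0.0071) and CENPP (adjusted p = 0.0275), and limma called CENPH and CENPP. DESeq2 also called CENPT in LB EPI against LB HYPO (adjusted p = 0.000247), CENPH in EB ICM against LB EPI (adjusted p = 0.0127), and CENPL and CENPE in M against EB ICM (adjusted p = 0.035 and 0.0434). CENPT, which links centromeric DNA to the outer kinetochore, had the highest mean of them. Its level was 139, 236, 347 and 220.1 TPM (embryos AN, AO, AP and AQ) in LB EPI. In LB HYPO it was 108, 78.9, 60.3, 73.7 and 97.9 TPM (embryos AL, AM, AN, AO and AP). In Sph EPI it was 48.9, 67.1, 91.5 and 71.6 TPM (embryos C, D, E and F). LB EPI lay above both other labels in every embryo, but neither LB EPI against LB HYPO (log2 fold change 1.19, SE 0.40, adjusted p = 0.181) nor LB EPI against Sph EPI (log2 fold change 1.34, SE 0.37, adjusted p = 0.211) passed. CENPH, a subunit of the inner kinetochore named here after its values were seen, was at 367, 292, 211 and 297 TPM (embryos AN, AO, AP and AQ) in LB EPI. In Sph EPI it was at 77.9, 89.3, 65.1 and 84.8 TPM (embryos C, D, E and F). The groups did not overlap (log2 fold change 1.71, SE 0.35, adjusted p = 0.0841). EB ICM, at 5.27, 75.8 and 117 TPM (lowest, median, highest), was also below LB EPI (log2 fold change -2.04, SE 0.62, adjusted p = 0.0969). The kinetochore motor CENPE was at 37.5, 57.9 and 101 TPM in M and 21.4, 28.9 and 56.6 in EB ICM (log2 fold change 0.88, SE 0.30, adjusted p = 0.107). CENPF was at 15.7, 39.5 and 79.7 TPM in M and 0, 19.8 and 25.3 in EB ICM.

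**Figure D4:**
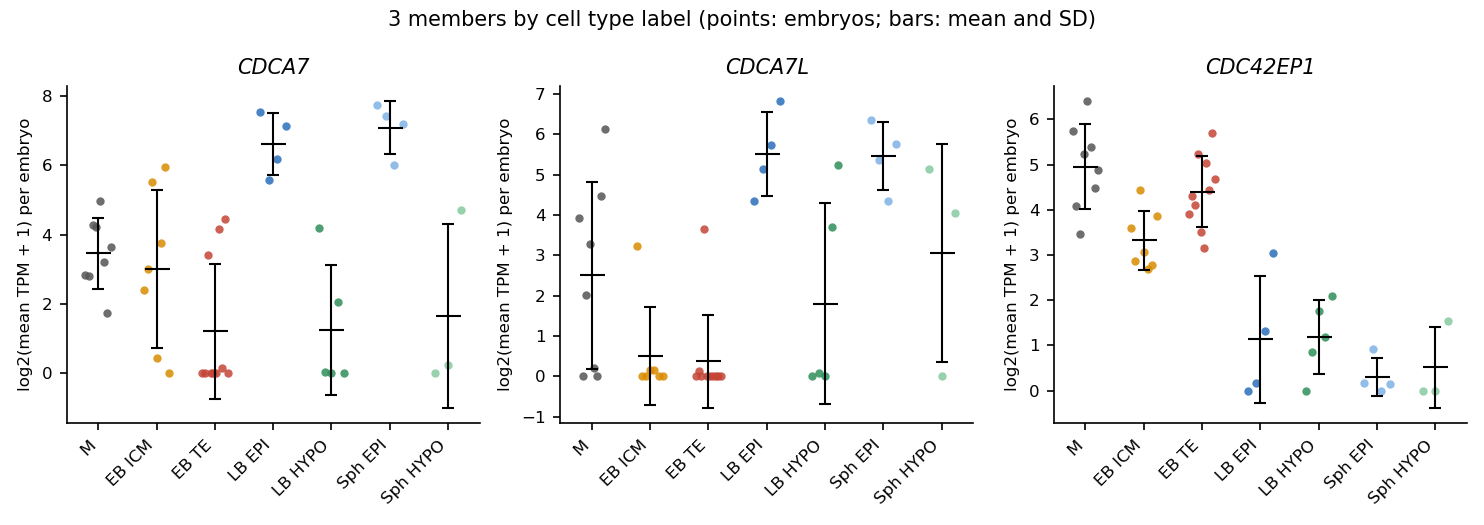
Log2(mean TPM + 1) per embryo of CDCA7, CDCA7L and CDC42EP1 in each cell type label; points are embryos and bars give the mean and SD of these log values. CDCA7 lies higher in every LB EPI and Sph EPI embryo than in any hypoblast embryo of the same stage, and CDC42EP1 stays at or below 7.28 TPM in the late labels.

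The other kinases and their regulators differed little. CDK7, the kinase of the CDK-activating complex and the highest of the 14 kinases of transcription and other processes, was at 74.2, 50.2, 55.2 and 56.1 TPM (embryos AN, AO, AP and AQ) in LB EPI. LB HYPO was at 157, 118, 44.1, 80.9 and 0.724 TPM (embryos AL, AM, AN, AO and AP). In M, CDK7 was at 52.5, 85.5 and 138 TPM and in EB ICM at 0, 25 and 78.5. Of the CDK inhibitors, CDKN3, a phosphatase that acts on CDKs, was the highest. It was at 0.996 to 91.5 TPM in M, 0 to 149 in EB TE, 70.3 to 181 in LB EPI, 63.1 to 187 in LB HYPO and 35.9 to 129.8 in Sph EPI. CDKN2C, an inhibitor of the G1 kinases, was above 1 TPM in 11 of 220 cells, 5 of them in LB EPI, and had 0 counts in Sph EPI and Sph HYPO.

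The phosphatase CDC25B was at 2.32, 14.6 and 34 TPM in M and at 2.24, 2.28, 0 and 4.71 TPM (embryos C, D, E and F) in Sph EPI. CDC25A was at 0.272 to 74.5 TPM in EB ICM, the highest value being the single cell of embryo AI, and 0 to 5.82 in Sph EPI. Neither M nor EB ICM was tested against Sph EPI. In edgeR's test among genes counted in all 7 labels, neither CDC25B (adjusted p = 0.827) nor CDC25A (adjusted p = 0.735) passed. CDC14A, a phosphatase of mitotic exit, had 0 counts in M and EB ICM and 616 counts in LB HYPO. Its level there was 17.5, 3.58, 0, 6.97 and 28.2 TPM (embryos AL, AM, AN, AO and AP). EB ICM against LB HYPO was called by DESeq2 (adjusted p = 3.91e-05) and not by edgeR. CDC27, a core subunit of the anaphase promoting complex, was at 364, 81.8, 91.8 and 85.4 TPM (embryos AN, AO, AP and AQ) in LB EPI, with embryo AN, of 2 cells, far above the rest. Sph EPI was at 34.7, 55.8, 39 and 64.3 TPM (embryos C, D, E and F). All were below every LB EPI embryo, and the difference did not pass in edgeR (log2 fold change 1.57, SE 0.47, adjusted p = 0.247).

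Outside the core cycle machinery, CDCA7, a partner of the chromatin remodeller HELLS, had higher levels in every epiblast embryo than in any hypoblast embryo of its stage, a difference that passed in some tools and not in edgeR. In LB EPI it was at 186, 47.2, 71.4 and 141 TPM (embryos AN, AO, AP and AQ). LB HYPO had 17.4, 0.0211, 0, 3.2 and 0 TPM (embryos AL, AM, AN, AO and AP), all below LB EPI. Sph EPI had 214, 171, 63.1 and 144 TPM (embryos C, D, E and F). Sph HYPO had 0, 0.194 and 25.1 TPM (embryos C, E and F), all below Sph EPI. The hypoblast embryos spread widely, from 0 to 17.4 TPM in LB and to 25.1 TPM in Sph. Neither LB (log2 fold change 4.92, SE 1.62, adjusted p = 0.168) nor Sph (log2 fold change 4.31, SE 1.63, adjusted p = 0.267) passed. In LB, CDCA7 passed in 5 of 12 alternatives, among them DESeq2 (adjusted p = 0.0468), limma (adjusted p = 0.0294) and the last 4 sequencing pools (adjusted p = 0.00501). In Sph it passed in limma (adjusted p = 0.0221) and not in DESeq2. It also passed in edgeR in LB without LB HYPO embryo AL and in Sph without Sph HYPO embryo F (log2 fold change 10.94, adjusted p = 0.00768). Its paralogue CDCA7L, named after its values were seen, was at 19.3, 34.1, 52.2 and 112 TPM (embryos AN, AO, AP and AQ) in LB EPI. EB ICM was at 0, 0 and 8.48 TPM, and the difference did not pass in edgeR (log2 fold change -4.93, SE 1.77, adjusted p = 0.141) but did in limma (adjusted p = 0.000148). CDCA3, which helps to degrade an inhibitor of mitotic entry, was the highest of the 6 CDCA genes. In the late blastocyst it was at 132 to 187 TPM in LB EPI and 146 to 199 in LB HYPO. Earlier it was at 70.6 to 116 TPM in M, 18.5 to 153 in EB ICM and 0 to 155 in EB TE. Sph EPI was at 39.4 to 184 TPM and Sph HYPO at 157 to 369. Limma called CDCA3 in the test among all labels (adjusted p = 0.0452), and edgeR and DESeq2 did not.

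CDC42EP1, an effector of the GTPase CDC42, was the member with the lowest adjusted p among genes counted in all labels. It was at 10.1 to 83.3 TPM (8 embryos, median 32.4) in M. EB ICM was at 5.42 to 20.5 TPM (7 embryos, median 7.37) and EB TE at 7.87 to 51.2 TPM (10 embryos, median 19.6). The late labels lay lower, at 0 to 7.28 TPM in LB EPI, 0 to 3.28 in LB HYPO, 0 to 0.899 in Sph EPI and 0 to 1.92 in Sph HYPO. Only LB EPI embryo AQ reached the EB ICM range, and no late embryo reached the lowest EB TE or M embryo. In single pairs it did not pass in edgeR, among them M against EB ICM (log2 fold change 1.80, SE 0.56, adjusted p = 0.0866). EB ICM against LB HYPO gave log2 fold change 2.94, SE 1.27, adjusted p = 0.192. EB ICM against LB EPI gave log2 fold change 1.99, SE 1.49, adjusted p = 0.521. DESeq2 called it in M against EB ICM (adjusted p = 0.00104), EB ICM against EB TE (adjusted p = 0.046) and EB ICM against LB HYPO (adjusted p = 2.57e-05). Limma called it in EB ICM against LB HYPO, and edgeR on sums of at least 2 cells in M against EB ICM (adjusted p = 0.0429). CDC42 itself was at 71 to 257 TPM in M and 128 to 266 in EB TE (223 at the highest without the E6-ER cell), at 85.9 to 184 in LB EPI and 162 to 287 in LB HYPO.

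**Figure D5:**
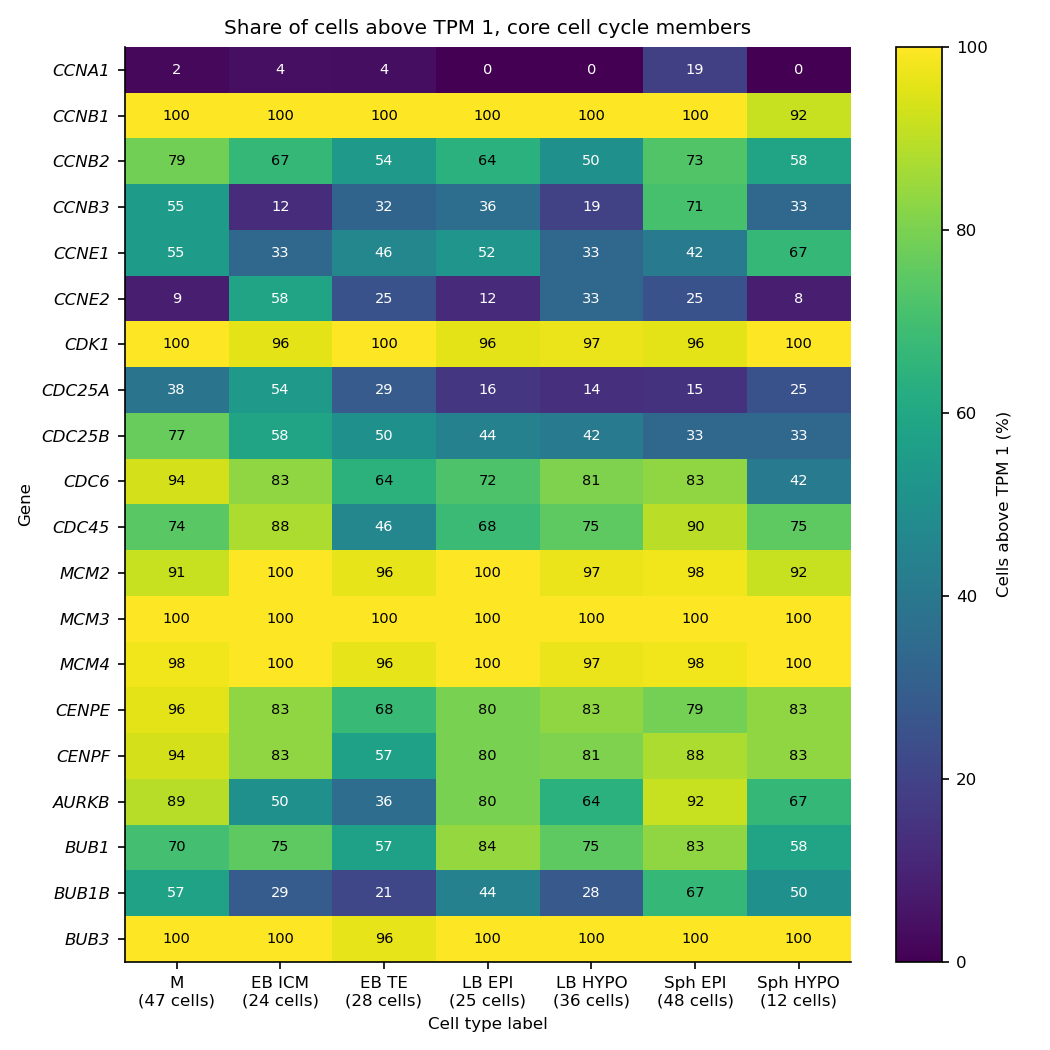
Percentage of cells above 1 TPM for 20 core cell cycle members in each cell type label, written in each field, with the number of cells under the label. CCNB1, CDK1, MCM2, MCM3, MCM4 and BUB3 are at 91.5% or above throughout, while CCNA1 stays at or below 18.8%.

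Shares of cells above 1 TPM separated the core members into those found nearly everywhere and those found in part of the cells, as the map of shares shows. CCNB1 was above 1 TPM in 219 of 220 cells, while CCNE1 was so in 100 and CCNB2 in 144. Of the cells, 64 had both CCNE1 and CCNB2, 36 CCNE1 alone, 80 CCNB2 alone and 40 neither. AURKB and BUB1B were both present in 84 cells, AURKB alone in 75 and BUB1B alone in 15. Depth and members detected per cell differed among labels, and the part of this in the shares was not tested.

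Of 71 cell cycle genes outside the symbol rule, 8 passed among 7 labels in the test over all genes, against 37.7% of genes. In M against EB ICM 1 passed against 2.45% of genes, and in M against EB TE 1 against 0.808%. In EB ICM against LB EPI 2 passed against 2.91%, and in EB ICM against LB HYPO 2 against 2.1%. CKS2, a small CDK-binding protein, had a median of 498 TPM in M, 192 in EB TE, 236 in EB ICM, 1020.3 in LB EPI and 804 in LB HYPO. It was higher in M than in EB TE (log2 fold change 1.49, SE 0.32, adjusted p = 0.0281). Without the cells of less certain embryo its adjusted p was 0.0129, but the call was lost without M embryo ER (adjusted p = 0.0536) and in the first 4 pools (adjusted p = 0.251). It was lower in EB ICM than in LB EPI (log2 fold change -2.06, SE 0.29, adjusted p = 0.00106) and LB HYPO (log2 fold change -1.83, SE 0.28, adjusted p = 0.00148). CCNG1, the p53-responsive cyclin G1, had a median of 777 TPM in M, 2226 in EB ICM and 354 in LB HYPO. It was lower in M than in EB ICM (log2 fold change -1.36, SE 0.22, adjusted p = 0.00184). This call was lost in the first 4 pools (adjusted p = 0.217) and in the last 4 pools (adjusted p = 0.127). CCNG1 was higher in EB ICM than in LB HYPO (log2 fold change 2.44, SE 0.31, adjusted p = 0.00021), a call lost in the last 4 pools (adjusted p = 0.198). TOP2A, the topoisomerase that untangles replicated DNA, was at a median of 113 TPM in EB ICM and 398 in LB EPI (log2 fold change -1.45, SE 0.34, adjusted p = 0.0288). Limma did not make this call (adjusted p = 0.0607). In edgeR it was lost in the last 4 pools (adjusted p = 0.175) and in the model of all 7 labels (adjusted p = 0.325). Sums of at least 2 cells lost it too (adjusted p = 0.0879). In the other 5 label pairs edgeR called none of the 71, against 0.156% to 1.92% of genes. From 3 to 8 of them were at an unadjusted p under 0.05, against 9.52% to 20% of genes.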

How the data were processed

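Single cells of pig embryos were profiled with Smart-seq2 and Nextera XT libraries. The authors trimmed the reads, aligned them to the pig genome with HISAT2 2.1.0, kept uniquely mapped pairs, counted them per Ensembl gene with HTSeq, and dropped cells that had too few mapped reads or too many mitochondrial ones. They deposited whole-number counts per gene and cell, which are not normalized. They also deposited TPM per gene and cell, computed from these counts and gene lengths. The count setting for strand is not given in the sources used here, and these libraries do not mark strand, so overlapping genes cannot be told apart. All columns were tied to a sample by its title, and the tables held 0 columns of other samples and 16 entries added by the authors.

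The values of 1 member and 1 marker gene are not reported here. The members and gene lists were chosen with earlier results of these data known. Cells were assigned to embryos by the letters in the cell id, since the labels give no embryo, and the sows are not named. P-values measure the spread between the sums of these embryos. This spread mixes differences between embryos with differences between cells, since some sums hold 1 or few cells and cell number was not a weight. One morula cell without such letters entered no sum. Counts were summed per embryo and label (41 sums), scaled by TMM and tested with edgeR 4.0.16 (glmQLFit and glmQLFTest, two-sided, R 4.3.3) over the 14721 entries above 1 TPM in at least 3 cells, with Benjamini-Hochberg adjustment over all of them and a threshold of 0.05. Each pair of labels was fitted on its own, and SE is the log2 fold change divided by the root of F. Positive log2 fold changes are higher in the label named first. The scripts were tested on simulated data. Fits were repeated with DESeq2 1.42.0, limma 3.58.1 on mean log2(TPM + 1) or log2(TPM + 0.1), without TMM, with other filters, with sums of at least 2 cells, within sequencing pools (pool numbers from the sample titles, which divide every label), with 1 model for all 7 labels, without less certain cells and without each embryo in turn.

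Sums of 2 labels from 1 embryo were taken as paired by the cell id. Over 6896 genes, the deviations of same-embryo sums correlated with a median of 0.0442 in EB, 0.0245 in LB and 0.0639 in Sph, against -0.00721, -0.0162 and -0.0396 between other embryos. A fit with embryo as a block was an alternative.

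Named were 20 core genes, members called in a test (the 10 of lowest p among the 7 labels), the member of highest mean in each role, and genes marked in the text as chosen after their values were seen. Intervals for shares of cells are exact Clopper-Pearson at 95%, and a share of 0 is limited at 3 cells of the total. Reads without molecular identifiers are not independent molecules, so these cover counting error only. No sequence is printed, since none was in the files used.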

Additional observations from a re-analysis of the deposited data

Results flagged for a closer look

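Some embryos stood apart from the others of their label in a named member, by a gap above the 95% critical value of Dixon's test. Of 201 groups of 4 to 10 embryos tested, 39 did so. Chance gives about 1 in 20 for normal values, but many of these genes are at or near 0 in most embryos. A group with every other embryo at 0 is flagged in any case, so the 39 cannot be set against that rate. No cause was tested. In M the mean TPM stood apart for MCM4 in embryo V (444, next 197), CCNA1 in embryo ER (0.781, next 0), MCM2 in embryo V (262, next 127), CDKL2 in embryo U (11.4, next 2.21), CDKN2C in embryo W (0.585, next 0) and CDCA7L in embryo Y (69.3, next 21.2). In EB ICM the mean TPM stood apart for BUB1B in embryo AE (56.4, next 19.98), CCNA1 in embryo AE (241, next 0), MCM2 in embryo AI (426, next 218), CDK15 in embryo AA (4.58, next 0), CDKL2 in embryo AG (3.99, next 0), CDKN2C in embryo AD (13.4, next 3.93), CDC42 in embryo AE (192, next 140.3), CDCA7L in embryo AA (8.48, next 0.123) and CDC42EP2 in embryo AG (28.0, next 9.60). In EB TE the mean TPM stood apart for CCNE1 in embryo AG (189, next 52.0), BUB1B in embryo AD (23.7, next 10.4), CDC25B in embryo AD (56.8, next 28.6), CCNA1 in embryo AE (117, next 0), CDK1 in embryo E6-ER (1208, next 673), CDC6 in embryo E6-ER (513, next 196), CENPE in embryo AF (132, next 58.6), MCM3 in embryo E6-ER (592, next 347), CDC14A in embryo AH (1.72, next 0), CDKN2C in embryo AB (7.93, next 3.93) and CDCA7L in embryo AD (11.7, next 0.0904). In LB EPI the mean TPM stood apart for CCNB3 in embryo AP (76.2, next 20.04), CENPF in embryo AN (88.5, next 29.7), CDC25A in embryo AN (21.8, next 3.46), BUB1 in embryo AO (133, next 64.1) and CDC27 in embryo AN (364, next 91.8). In LB HYPO the mean TPM stood apart for CCNE2 in embryo AO (20.8, next 5.54), CENPF in embryo AP (72.5, next 20.1), CDK15 in embryo AO (12.5, next 0), CDCA7 in embryo AL (17.4, next 3.20), CDKL2 in embryo AO (8.27, next 0) and CDKN2C in embryo AN (9.09, next 0.0270). In Sph EPI the mean TPM stood apart for BUB1 in embryo C (49.9, next 86.1) and CDC42EP1 in embryo D (0.899, next 0.128). BUB1 in Sph EPI embryo C was below the others, and the rest were above. The EB TE values for CDK1, CDC6 and MCM3 belong to the single cell of embryo E6-ER, in which 4 of 6 trophectoderm markers were at 0.

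The morula cell whose id names no embryo, which entered no sum, had 53 of the 87 members above 3 counts, among them CCNB1 (1345 TPM), CDK1 (346 TPM) and BUB3 (169.8 TPM).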

How the results depend on the processing

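CDK1 in M against EB TE kept its direction in every alternative run (log2 fold change 1.56 to 1.92) and its call in all but the first 4 and the last 4 sequencing pools, each with fewer cells. The one reversal was MCM3 in LB EPI against LB HYPO, 0.24 in the last 4 pools, and the cause was not tested. In Sph HYPO 2 of 3 embryos have 2 cells, and the part of depth and of cells per sum in the number of calls was not tested.

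The counts of members called moved as follows, and the causes were not tested. The counts over all genes moved too: over the 11 tests they ran from 6 to 5556 in edgeR, 342 to 2514 in DESeq2, 24 to 4806 in limma with a pseudocount of 1 and 22 to 4766 with 0.1. They ran from 8 to 4088 after filterByExpr, 10 to 6908 without a filter and 3 to 5149 with sums of at least 2 cells. The first 4 pools gave 13 to 4166 genes and the last 4 pools 0 to 3276. One model for all labels gave 5 to 894 genes over its 10 tests. Among 7 labels DESeq2 called 17.1% of genes, and limma 32.6% and 32.4%. DESeq2 called 8 in the test among 7 labels, 6 in M against EB ICM, 2 in M against EB TE, 1 in EB ICM against EB TE, 4 in EB ICM against LB EPI, 4 in EB ICM against LB HYPO, 4 in LB EPI against LB HYPO, 8 in LB EPI against Sph EPI, 1 in LB HYPO against Sph HYPO, 5 in Sph EPI against Sph HYPO and 2 for the difference between stages. Limma with a pseudocount of 1 called 22 among 7 labels, 2 in M against EB ICM, 4 in M against EB TE, 1 in EB ICM against EB TE, 3 in EB ICM against LB EPI, 3 in EB ICM against LB HYPO, 2 in LB EPI against LB HYPO and 2 in LB EPI against Sph EPI. With a pseudocount of 0.1 it called 21, 1, 3, 0, 5, 3, 2 and 2 in these. Of the tests among 7 labels, genes counted in all labels gave 3, an alternative chosen after seeing the data, and the last 4 pools gave 9. One model for all labels called 1 in M against EB ICM, 2 in M against EB TE, 2 in EB ICM against LB HYPO and 0 in Sph EPI against Sph HYPO. The filter filterByExpr gave 1 in M against EB ICM, 1 in LB EPI against LB HYPO and 0 in Sph EPI against Sph HYPO, and no filter gave 1 in EB ICM against LB HYPO. Sums of at least 2 cells gave 1 in M against EB ICM, 2 in EB ICM against LB EPI and 1 in LB EPI against LB HYPO. The first 4 pools gave 0 in M against EB TE, and the last 4 pools gave 0 in M against EB TE, 0 in EB ICM against LB EPI, 1 in LB EPI against LB HYPO and 0 in Sph EPI against Sph HYPO.

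With embryo as a replicate block, 0 members were called in Sph EPI against Sph HYPO, in EB ICM against EB TE, in LB EPI against LB HYPO and for the difference between stages. The 1 call in Sph was lost under the block, which also takes the unpaired Sph EPI embryo D out of the contrast. Leaving out Sph EPI embryo C, D, E or F or Sph HYPO embryo E gave 0 as well, and the cause of the loss was not tested. With each embryo left out in turn, the members called numbered 11 to 17 among 7 labels, 1 to 2 in EB ICM against LB EPI, 0 to 1 in EB ICM against LB HYPO, 0 to 1 in LB EPI against LB HYPO, 0 to 0 in LB EPI against Sph EPI, 0 to 1 in LB HYPO against Sph HYPO, 0 to 6 in Sph EPI against Sph HYPO and 0 to 3 for the difference between stages. The high ends of the last 3 came without Sph HYPO embryo F, which holds 8 of the 12 cells of that label: CDC6 in LB HYPO against Sph HYPO, 6 members in Sph EPI against Sph HYPO, and CDC6, CCNB2 and CDCA5 for the difference between stages. Without this embryo the calls over all genes rose as well, from 24 to 110, from 167 to 583 and from 6 to 165 in these tests. Without EB ICM embryo AA, CDCA7L was added in EB ICM against LB EPI, and without embryo AD, CENPH. Leaving out LB HYPO embryo AN added CDC14A in EB ICM against LB HYPO, and leaving out LB HYPO embryo AL added CDCA7 in LB EPI against LB HYPO. Genes called in these fits numbered 316 without AA and 428 without AD, in place of 428. They numbered 220 without AN in place of 309, and 244 without AL in place of 283. At 5 TPM in place of 1 TPM, 136 of the shares of cells of core members kept to their intervals and 4 did not.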

Other observations

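Within embryos, single cells that had more CDK1 tended to have more CENPF, a kinetochore protein of late S phase to mitosis. After the embryo mean was taken from log2(TPM + 1), Pearson's r over 219 cells was 0.48 for this pair, the highest of 3741 member pairs, whose median was 0.02 and lowest -0.25. Among 10 mitotic genes the median r of 45 pairs was 0.12, among 9 replication genes 0.06 over 36 pairs, and between both sets -0.02 over 90 pairs. These are descriptions over cells that share embryos and differ in depth, with no test, and most are weak correlations in sparse values. The next pairs were CCNB3 with CENPL (0.34) and CENPT with CDCA2 (0.33), named after their values were seen.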
